A study of Mus musculus with 8 samples.

Results

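The regions described here are H3K4me3 peaks of D1 dendritic cells (DCs) that were called with curdlan and not in non-treated cells. They were also called when curdlan was given with FK506. They were selected on the deposited peak lists: a peak of the curdlan list was a member if it shared no base with any peak of non-treated (NT) cells and at least 1 base with a peak of the curdlan + FK506 list. This gave 232 of 14872 curdlan peaks. A further 360 peaks were gained over NT and had no FK506 peak, so that 39.2% (95% Wilson interval 35.3 to 43.2) of the 592 gained peaks were kept. This share follows from the rule and its thresholds and is a description. Most curdlan peaks, 13789, lay in all 3 lists. The words gained and kept refer throughout to these calls.

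D1 is a long-term splenic DC line of C57BL/6 origin, grown in medium with GM-CSF-containing supernatant. H3K4me3 was measured in NT cells, in cells given curdlan for 2 h and in cells given curdlan with FK506 for 2 h, and NFATc2 was measured 30 min after curdlan in D1 cells carrying V5-tagged NFATc2 from a lentiviral vector and sorted for low GFP (the labels call the factor NFAT1). Curdlan was used at 10 µg/ml. The FK506 dose of the H3K4me3 libraries is not in their labels. A single ChIP library and a single input library stood for every condition. The spread between replicates is therefore unknown, and no interval given here covers it. Intervals of levels and ratios cover the counting error of tags only. Intervals of shares treat the peaks of these lists as independent counts, and peaks are not replicates of a condition.

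H3K4me3 is trimethylation of lysine 4 of histone H3, a mark found mainly at the promoters of active genes and kept in place at CpG-rich promoters in many cell types. Curdlan is a β-glucan that binds dectin-1, a C-type lectin receptor of DCs and macrophages whose signals reach NF-κB, MAP kinases and, through calcium and the phosphatase calcineurin, the NFAT transcription factors. FK506 blocks calcineurin and so holds NFAT in the cytoplasm. NFAT proteins bind the core GGAAAA and often pair with AP-1.

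The H3K4me3 libraries held 16662316 (NT), 21289349 (curdlan) and 19468498 (curdlan + FK506) ChIP tags, a tag being 1 mapped read position, and the NFATc2 library held 14377535. Tags in a peak are given as counts or as RPM, the tags per 1000000 ChIP tags of the library. The value with FK506 is that of the FK506 peak or peaks overlapping the member, so it is taken over their own ends. A mark that is lower in every cell and one that is present in fewer cells cannot be told apart here. In each H3K4me3 list 9 of 11 annotated DC marker genes had a peak within 1 kb of a transcription start site (TSS), and none of the T cell, B cell, fibroblast or erythroid markers had one. The lists also differed in the other direction: 1261 of 15799 NT peaks (7.98%) had no curdlan peak, with a median of 4.32 RPM, and 276 FK506 peaks had neither an NT nor a curdlan peak, with a median of 3.34. Of those 1261 NT peaks, 435 had an FK506 peak, beside 232 of the 592 gained peaks. The files give no tags where no peak was called, so the NT level at the members is unknown. A mark gained with curdlan and a weak peak missed in the NT library therefore cannot be told apart. At the members' median curdlan level of 98.0 tags, 76.7 tags would be expected in the NT library if nothing had changed.

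NFATc2 summits lay inside 50 of the 232 members. The windows below show the DNA at the 8 strongest of these NFATc2 summits among the members named by the rule given with the methods. There an NFATc2 summit at 30 min lay inside a peak gained at 2 h, in separate libraries. The series holds no NFATc2 library with FK506. At Rap1b and Kcnip1 an NT peak lay only 33 and 68 bp from the member, and the FK506 peak overlapped an NT peak. Each window runs from 100 bp before to 100 bp after the NFATc2 summit on the plus strand of mm9, 5′ to 3′. The Siglec5 window stops before the first annotated untranslated base and is 119 bases long. Capitals mark the NFAT core GGAAAA, the AP-1 site TGANTCA and the letters GGAAGT, the core bound by ETS factors such as PU.1, on either strand. The Siglec5 window (chr7:50606646-50606764) lies upstream of the TSS used here for this sialic acid-binding lectin gene and overlaps first exons of other transcripts of it. Those named Tnfsf15 (chr4:63406424-63406624), Stfa2 (chr16:36421074-36421274) and Ufm1 (chr3:53679546-53679746) are outside annotated genes. Those named Bspry (chr4:62142389-62142589) and Rap1b (chr10:117277720-117277920) are in introns of these genes. Gm11216 (chr4:63745112-63745312) and Kcnip1 (chr11:33910293-33910493), named for the nearest TSS, are in introns of 8030451A03Rik and 4930469K13Rik.
Siglec5: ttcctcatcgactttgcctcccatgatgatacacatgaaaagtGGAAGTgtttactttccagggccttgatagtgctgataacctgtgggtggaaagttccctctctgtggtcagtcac
Tnfsf15: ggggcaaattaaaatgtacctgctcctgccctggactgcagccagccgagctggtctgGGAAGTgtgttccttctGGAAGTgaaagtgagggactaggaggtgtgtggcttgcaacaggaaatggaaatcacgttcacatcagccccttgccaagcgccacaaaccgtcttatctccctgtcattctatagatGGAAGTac
Stfa2: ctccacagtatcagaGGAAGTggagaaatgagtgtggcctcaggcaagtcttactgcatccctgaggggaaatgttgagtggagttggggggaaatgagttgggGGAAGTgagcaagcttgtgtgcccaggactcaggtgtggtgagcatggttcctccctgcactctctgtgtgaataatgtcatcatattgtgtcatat
Bspry: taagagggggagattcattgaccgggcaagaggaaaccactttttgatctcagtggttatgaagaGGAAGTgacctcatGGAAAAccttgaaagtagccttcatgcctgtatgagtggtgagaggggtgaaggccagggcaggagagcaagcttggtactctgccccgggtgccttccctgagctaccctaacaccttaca
Gm11216: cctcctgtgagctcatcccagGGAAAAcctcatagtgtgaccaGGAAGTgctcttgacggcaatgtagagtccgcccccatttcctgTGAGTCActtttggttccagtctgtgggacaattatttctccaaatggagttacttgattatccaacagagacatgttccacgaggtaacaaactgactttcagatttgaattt
Ufm1: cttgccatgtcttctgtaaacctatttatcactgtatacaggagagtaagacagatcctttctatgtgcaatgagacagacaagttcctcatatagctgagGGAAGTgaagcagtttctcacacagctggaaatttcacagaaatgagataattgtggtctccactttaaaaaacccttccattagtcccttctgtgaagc
Kcnip1: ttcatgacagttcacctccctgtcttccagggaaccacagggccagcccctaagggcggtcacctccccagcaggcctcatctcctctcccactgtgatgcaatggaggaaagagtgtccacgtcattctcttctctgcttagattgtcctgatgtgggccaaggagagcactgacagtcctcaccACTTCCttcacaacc
Rap1b: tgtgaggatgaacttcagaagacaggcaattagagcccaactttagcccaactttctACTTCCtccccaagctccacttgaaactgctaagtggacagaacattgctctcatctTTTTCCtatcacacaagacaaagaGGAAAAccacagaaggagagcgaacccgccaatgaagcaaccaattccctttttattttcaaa

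The Gm11216 window held an NFAT core, an AP-1 site and an ETS core. The Bspry window held 1 NFAT core and the Rap1b window held 2. The other 5 held neither the letters GGAAAA nor the AP-1 letters, which says only that these letters are not in these windows. Each of the 5 held the shorter letters GGAAA, which were not counted. All 8 held at least 1 GGAAGT, and the Tnfsf15 window held 3. GGAAGT was chosen for counting after these windows were read.

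Over all 53 NFATc2 summits inside members, the NFAT core stood within 100 bp of 24 (45.3%, interval 32.7 to 58.5), the share found at all 9438 NFATc2 summits being 45.6%. In windows of the same length 1 kb to each side of the members' NFATc2 summits the share was 13.2%. AP-1 letters were at 8 of 53 (15.1%, 7.85 to 27.1), against 21.7% of all NFATc2 summits and 27.9% (18.7 to 39.6) of the 68 summits in gained peaks without an FK506 peak, intervals that overlap. NFAT core and AP-1 were together at 3 of the 53. GGAAGT was at 27 of 53 (50.9%, 37.9 to 63.9), against 34.5% of all NFATc2 summits. Without the 8 windows that prompted the count it was at 19 of 45 (42.2%, 29.0 to 56.7), an interval that holds the share of all NFATc2 summits. No κB core (GGANTTTCC) was found at the 53 summits, which by a limit of 3 counts allows a share of up to 5.66%, and the share at all NFATc2 summits was 3.43%, part of it from 52 of 331 κB matches that also hold the NFAT core.

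Around the H3K4me3 summits of the members themselves a core bound by IRF factors was more frequent than in the list as a whole. The core of the interferon-stimulated response element (GAAANNGAA) was within 100 bp of 39 of 232 member summits (16.8%, 12.5 to 22.2). It was at 7.43% of all curdlan summits and at 13.6% (10.5 to 17.5) of gained peaks without an FK506 peak. The NFAT core was at 20.7% (16.0 to 26.4) of member summits and at 17.7% of all curdlan summits, and GGAAGT at 13.8% (9.94 to 18.8) and 12.2%. The members, like the other gained peaks, were poorer in CpG than peaks in all 3 lists: 31 (13.4%, 9.58 to 18.3) were CpG-rich within 500 bp of the summit (GC content of at least 50% and observed over expected CpG of at least 0.6), against 11.4% (8.51 to 15.1) of gained peaks without an FK506 peak and 54.4% of the peaks in all 3 lists. Among summits within 1 kb of a TSS the shares were 39.1% (28.5 to 50.9), 48.4% (36.4 to 60.6) and 67.2%. The median GC content around the summit was 47.8% in members, 46.7% in gained peaks without an FK506 peak and 55.2% in peaks in all 3 lists, and its part in the motif shares was not tested.

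Members were weak and narrow peaks beside the rest of the list. They held a median of 98.0 tags (quartiles 67.8 and 160, range 39.0 to 1053) or 4.60 RPM over a median of 1530 bp. Gained peaks without an FK506 peak held a median of 77.5 tags, and peaks in all 3 lists 635 tags over 2670 bp. The false discovery rate that MACS estimated was over 5% for 67 members (28.9%), for 50.8% of gained peaks without an FK506 peak and for 1.54% of peaks in all 3 lists. The FK506 peak of 87 members (37.5%) was likewise over 5%. A gained peak was kept the more often the more tags it had: 14 of 71 with fewer than 50 tags, 104 of 290 with 50 to under 100, 77 of 177 with 100 to under 200, 26 of 40 with 200 to under 400 and 11 of 14 with 400 or more. A peak with more tags is more readily called again in another list. The rise is therefore partly set by the rule and is a description.

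The strongest members at promoters belonged to cytokine and chemokine genes and to a lectin gene. Within 1 kb of a TSS of a listed immune gene lay the summits of members at Tnfsf14, Tnfsf15, Ccl1, Il23a and Il1rn. These members were among the 6 with the most tags and a summit within 1 kb of a protein-coding TSS. Member summits lay within 1 kb of 2 of 17 TNF superfamily ligands, 1 of 34 annotated chemokines, 2 of 49 interleukins and other cytokines, and 67 of 22350 protein-coding genes (0.300%). They lay at none of 16 NF-κB subunits and inhibitors, 32 immediate early transcription factors, 33 signalling feedback genes, 12 NFAT and calcineurin genes, 22 costimulation and maturation genes, 16 prostaglandin and leukotriene genes or 26 interferon-stimulated genes. A promoter peak in all 3 lists was found at 15, 22, 26, 10, 13, 11 and 23 genes of these lists in the same order, and at 45.4% of all protein-coding genes. In lists of this size the members' counts of 0 are near their share of 0.300%. Gained peaks without an FK506 peak lay at 57 protein-coding genes (0.255%). Among the listed genes these were 1 TNF superfamily ligand (Cd70), 1 costimulation and maturation gene (Il4i1) and 1 prostaglandin and leukotriene gene (Ptgs2). Of 21 cytokine and chemokine genes that the study itself listed, 4 had a member, and that list is not independent evidence since it was drawn up from these experiments.

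Tnfsf14 encodes LIGHT, a TNF superfamily ligand of HVEM and the lymphotoxin β receptor. Its peak (chr17:57330314-57334001, summit 552 bp into the gene, in an intron) lay 51110 bp from the nearest NT peak and held 923 tags with curdlan and 197 with FK506, or 43.4 and 10.1 RPM. The level with FK506 was 4.28-fold lower, a ratio of 0.233 (interval 0.199 to 0.272). An NFATc2 summit lay 153 bp upstream of the TSS and another 5104 bp downstream, where a separate gained peak of 141 tags had no FK506 peak.

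Ccl1, the chemokine that binds CCR8, came next among the listed genes. Its peak (chr11:81989944-81993791, summit 870 bp into the gene, in an intron) held 489 tags with curdlan and 122 with FK506, 23.0 and 6.27 RPM, 3.67-fold lower (ratio 0.273, 0.222 to 0.333). No NFATc2 summit lay inside it, and the nearest was 18984 bp from its summit.

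Tnfsf15 encodes TL1A, the TNF superfamily ligand of DR3, and kept most of its mark. Its peak (chr4:63402777-63407466, summit 236 bp into the gene, in an exon) held 423 and 286 tags, 19.9 and 14.7 RPM, a ratio of 0.739 (0.634 to 0.861). The NFATc2 summit printed above lay inside it, 377 bp upstream of the TSS.

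Il23a encodes the p19 subunit of IL-23. Its peak (chr10:127732072-127736315, summit 587 bp into the gene, in an exon) held 412 and 189 tags, 19.4 and 9.71 RPM. The level with FK506 was 1.99-fold lower (ratio 0.502, 0.420 to 0.597), just short of the 2-fold limit, and an NFATc2 summit lay 197 bp upstream of the TSS. A peak about 5 kb upstream was in all 3 lists with 42.5, 31.8 and 32.9 RPM in NT, curdlan and curdlan + FK506, so the gained mark at Il23a stood beside one that was there before stimulation.

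Il1rn encodes the IL-1 receptor antagonist. Its peak (chr2:24200564-24203593, summit 744 bp into the gene, in an exon) held 266 and 110 tags, 12.5 and 5.65 RPM, 2.21-fold lower (ratio 0.452, 0.359 to 0.567), with the nearest NFATc2 summit 21990 bp away. Siglec5 encodes a sialic acid-binding lectin, and its peak (chr7:50606134-50610214, summit 773 bp into the gene, in an exon) held 834 and 226 tags, 39.2 and 11.6 RPM. That was 3.37-fold lower (ratio 0.296, 0.255 to 0.344) and the NFATc2 summit inside the peak held 235 tags.

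**Figure D1:**
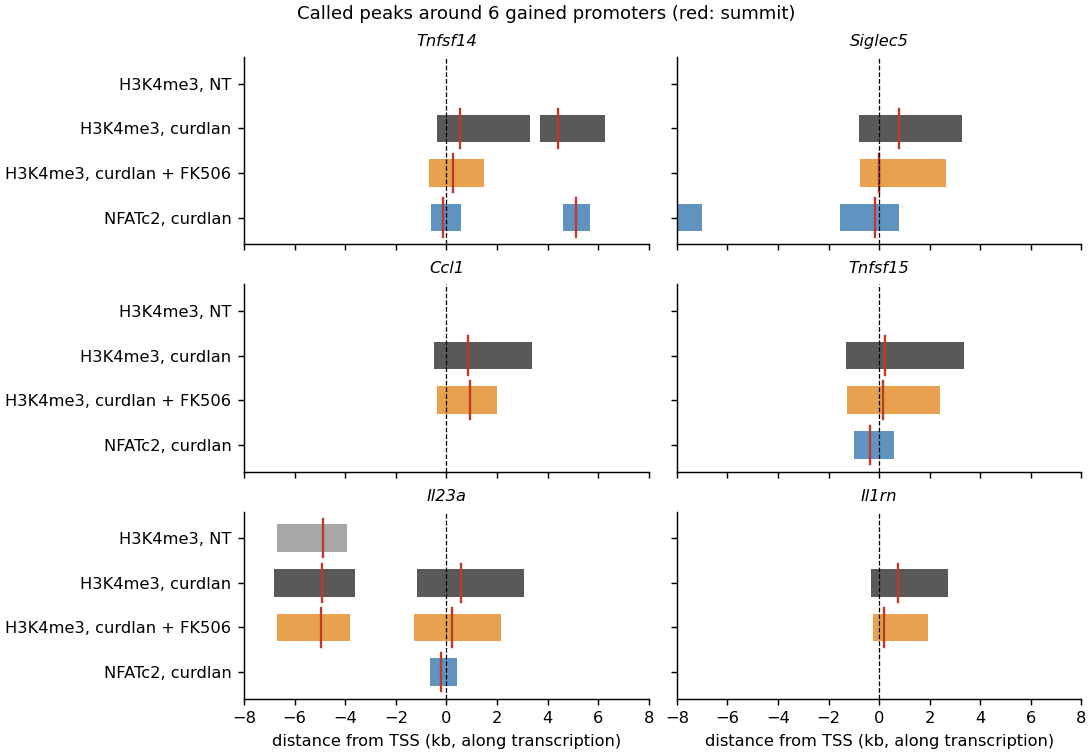
Called peaks of the 4 lists around the TSS of 6 genes with a gained promoter peak (x axis, distance from the TSS in kb along the direction of transcription, boxes from peak start to peak end, red lines at summits, dashed line at the TSS). None of the 6 has an NT peak at the TSS, each has a curdlan + FK506 peak whose downstream end is nearer to the TSS than that of the curdlan peak, and 4 of them have an NFATc2 summit inside the curdlan peak.

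With FK506 the called peaks at the strongest of these promoters ended sooner on the side of the gene body. Of 65 promoter members matched 1 to 1 with an FK506 peak, 9 had 200 or more tags, and in all 9 the downstream end lay nearer to the TSS with FK506, by a median of 918 bp. The shortening was 1823 bp at Tnfsf14, 1811 bp at Slc8a2, 1371 bp at Ccl1, 966 bp at Tnfsf15, 918 bp at Il23a, 790 bp at Il1rn, 662 bp at Siglec5, 436 bp at Stfa2 and 213 bp at Gm11998. The upstream ends moved by a median of 54 bp. In the 56 promoter members with fewer than 200 tags the downstream end was nearer in 36 (64.3%), with a median of 38 bp, and over all 65 it was nearer in 45 (69.2%), with a median of 65 bp. Among 8914 promoter peaks of the same tag range in all 3 lists the downstream end was nearer in 58.2%, with a median of 28 bp, and among 887 such peaks with fewer than 200 tags in 55.5%, with a median of 10 bp. The end of a called peak moves with its tags, so these lengths and the tag counts are not separate measurements.

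Of the other promoter members among the 20 with the most tags, Slc8a2, a sodium/calcium exchanger gene, held 253 and 96 tags (11.9 and 4.93 RPM, 2.41-fold lower). Its FK506 peak was called over 1948 bp against 3936 bp with curdlan. Per kb of called peak its log2 ratio of FK506 over curdlan was -0.25. Stfa2, a stefin gene whose product inhibits cysteine proteases, held 246 and 176 tags (11.6 and 9.04 RPM). The remaining 12 held 98 to 140 curdlan tags. Nt5c2, a cytosolic nucleotidase gene, held 133 and 66 tags, a ratio of 0.543 (0.398 to 0.734), and Wnk4, a kinase gene, 100 and 54. Gpr84, the gene of a receptor for medium-chain fatty acids, went the other way with 129 and 181 tags, 6.06 and 9.30 RPM (ratio 1.53, 1.22 to 1.94). So did Src, a tyrosine kinase gene, with 115 and 197 tags, 5.40 and 10.1 RPM (ratio 1.87, 1.48 to 2.38). Mmp19, a matrix metalloproteinase gene, held 125 and 111 tags, 5.87 and 5.70 RPM, and Itga2b, the integrin αIIb gene, 102 and 119, 4.79 and 6.11.

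**Figure D2:**
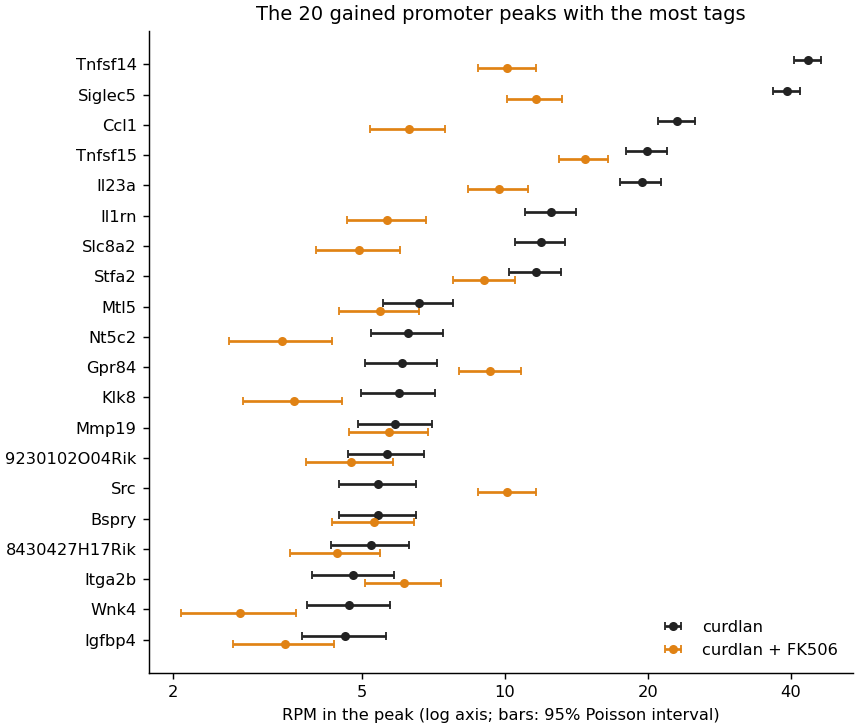
RPM (log axis, bars 95% Poisson interval) with curdlan (black) and curdlan + FK506 (orange) in the 20 members with the most curdlan tags and a summit within 1 kb of a protein-coding TSS. The FK506 value is taken over the overlapping FK506 peak. Tnfsf14, Siglec5, Ccl1, Tnfsf15, Il23a, Il1rn, Slc8a2, Nt5c2, Klk8 and Wnk4 are lower with FK506 with intervals that do not overlap, Gpr84 and Src are higher, and the intervals of the rest overlap.

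Weaker promoter members included 3 at the class I-like genes H2-Q6, H2-Q7 and H2-Q8 within 44450 bp on chromosome 17, with 76, 86 and 62 curdlan tags and 96, 78 and 45 tags with FK506. These genes are near-identical copies, so reads may be shared between them. Members also lay at Ikbke, a kinase gene of the antiviral and NF-κB pathways (84 and 49 tags), Hdac7, a histone deacetylase gene (79 and 83), Impdh1, of guanine nucleotide synthesis (84 and 70), and F2rl1, a protease-activated receptor gene (73 and 64). These were chosen after their values were seen.

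Several cytokine and chemokine genes had a member whose summit was over 1 kb from the TSS. Il1a, encoding IL-1α, had one (chr2:129132573-129136390) that covered the TSS, with its summit 1416 bp into the gene. It held 504 and 409 tags, 23.7 and 21.0 RPM (ratio 0.887, 0.777 to 1.01). Ccl17 and Ccl22, both ligands of CCR4, had one 6093 bp upstream (374 and 244 tags, 17.6 and 12.5 RPM, ratio 0.713, 0.605 to 0.841) and one 9811 bp upstream (86 and 85 tags, 4.04 and 4.37 RPM). Tnfsf9, the 4-1BB ligand gene, had one 8762 bp upstream (129 and 118 tags), the stress-response gene Gadd45b one 10204 bp downstream (188 and 110 tags, ratio 0.640, 0.501 to 0.814) and the IκB family gene Nfkbid one 19375 bp downstream (48 and 28 tags). The intervals at Il1a reach 1, and those at Ccl17 and Gadd45b do not.

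Most members lay away from TSSs. Their summits were within 1 kb of a TSS in 69 cases (29.7%, 24.2 to 35.9), against 71.6% of all curdlan peaks, 75.5% of peaks in all 3 lists and 17.2% (13.7 to 21.5) of gained peaks without an FK506 peak. The median distance was 6386 bp for members, 13352 bp for gained peaks without an FK506 peak and 408 bp for peaks in all 3 lists. Over 10 kb from a TSS were 92 members (39.7%) and over 50 kb 26 (11.2%). By place, 103 summits were in introns, 102 between genes and 27 in exons. The nearest TSS was that of a protein-coding gene for 170 members, and the commonest other types were processed transcripts (17), pseudogenes (13) and lincRNAs (12). The members had 220 distinct nearest genes on 20 chromosomes, and 15 lay within 50 kb of another member, among them Siglec5 and Siglecg, both genes of sialic acid-binding lectins, with summits 48042 bp apart.

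**Figure D3:**
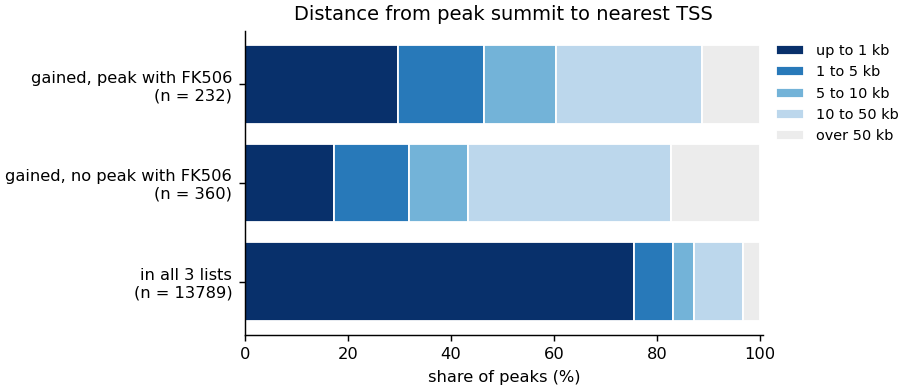
Share of peaks (x axis, percent) by distance of the summit from the nearest TSS in 5 classes, for members (n = 232), gained peaks without an FK506 peak (n = 360) and peaks in all 3 lists (n = 13789). Up to 1 kb are 29.7%, 17.2% and 75.5%, and over 10 kb 39.7%, 56.7% and 12.9%.

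The member with the most tags was far from any coding TSS. It lay at chr4:63741225-63747628, 8259 bp from the TSS of the noncoding transcript Gm11216 and 63066 bp upstream of Tnc, the tenascin C gene, and held 1053 tags with curdlan and 218 with FK506, 49.5 and 11.2 RPM, 4.42-fold lower (ratio 0.226, 0.195 to 0.262). It held 2 NFATc2 summits. The member with the next most tags, 33946 bp upstream of B4galt5, a galactosyltransferase gene, held 969 and 806 tags, 45.5 and 41.4 RPM (ratio 0.910, 0.827 to 1.000), with 1 NFATc2 summit inside. A member 109877 bp from the miRNA gene AC154816.1, with Klf6 as the nearest coding gene at 245939 bp, held 757 and 458 tags (ratio 0.662, 0.588 to 0.744). An NT peak lay only 288 bp from it. The ratios of the 3 strongest distal members thus ran from 0.226 to 0.910. Distal members near Agr3 (213582 bp upstream; 420 and 123 tags), Gm16793 (343 and 113) and Bex6 (359 and 158) were lower with FK506 by 3.12-fold, 2.78-fold and 2.08-fold. Per kb of called peak their log2 ratios of FK506 over curdlan were -0.51, -0.80 and -0.15. The members near Cd9, a tetraspanin gene (372 and 362 tags, ratio 1.06, 0.918 to 1.23), and Tmc1 (350 and 347, ratio 1.08, 0.932 to 1.26) had intervals that hold 1.

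Over all members the level with FK506 was close to that without, and since the rule asked for an FK506 peak this is a description. The median was 4.60 RPM with curdlan (range 1.83 to 49.5) and 4.62 with FK506 (range 1.44 to 91.8). The median log2 ratio of FK506 over curdlan was -0.09 (quartiles -0.33 and 0.10), and over all 14021 curdlan peaks with an FK506 peak it was -0.04. It was lower in 146 members (62.9%) and in 63.6% of those 14021. The interval of the ratio lay wholly under 1 in 49 members and wholly over 1 in 19. No such count was made over the 14021 peaks, so these counts have no background to be read against. They also include the 7 members, described below, whose FK506 peak overlaps an NT peak.

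A fall of at least 2-fold was found in 9 members (3.88%, 2.05 to 7.21), against a background of 0.285% (40 of 14021). They were the members at Gm11216, Tnfsf14, Ccl1, Siglec5, Agr3, Gm16793, Slc8a2, Il1rn and Bex6, with log2 ratios from -2.14 to -1.06. The rule chose members for a curdlan peak without an NT peak, and the curdlan level is the divisor of this ratio. The background is mostly peaks in all 3 lists (13789 of 14021). The excess over it is therefore partly set by the rule and is a description. All 9 were among the 37 members with 200 or more tags, and none of the weaker ones fell as far. In all 3 lists 23 of 11507 peaks with 200 or more tags did. By tags the median log2 ratio of members was 0.11 under 50 tags (n = 14), -0.07 from 50 to under 100 (n = 104), -0.04 from 100 to under 200 (n = 77), -0.33 from 200 to under 400 (n = 26) and, from 400 on, that of Il23a, 1.99-fold lower (n = 11), while in all 3 lists it stayed between -0.05 and 0.09 in the same classes. A weak peak that loses much of its tags is no longer called and so leaves the set by its rule, which bounds what the weaker members can show. The size of the fall also depends on the measure: per kb of called peak 3 members (1.29%; Siglec5, Tnfsf14 and Ccl1) fell at least 2-fold, against 0.0713% of all 14021, and by fold enrichment over input 19 (8.19%), against 9.92% of all 14021, so that by this measure such falls were not more frequent in members.

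A rise of at least 2-fold was found in 9 members (3.88%), against a background of 1.32%. In 7 of these the FK506 peak was a wide one that also overlapped an NT peak, so that its tags include those of a region that already had a peak in NT cells. The largest were Pi4ka (108 and 1520 tags), Bahcc1 (51 and 649), Ppm1h (81 and 988) and Rap1b (159 and 1788), with log2 ratios of 3.94, 3.80, 3.74 and 3.62. Tbl1x, Cpne2 and Kcnip1 made up the 7. The other rises were at Ufm1, a ubiquitin-like modifier gene (255 and 471 tags, 12.0 and 24.2 RPM, ratio 2.02, 1.73 to 2.36), and near Vwf (68 and 141 tags, ratio 2.27, 1.69 to 3.07). Without the 7 the median log2 ratio was -0.10.

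**Figure D4:**
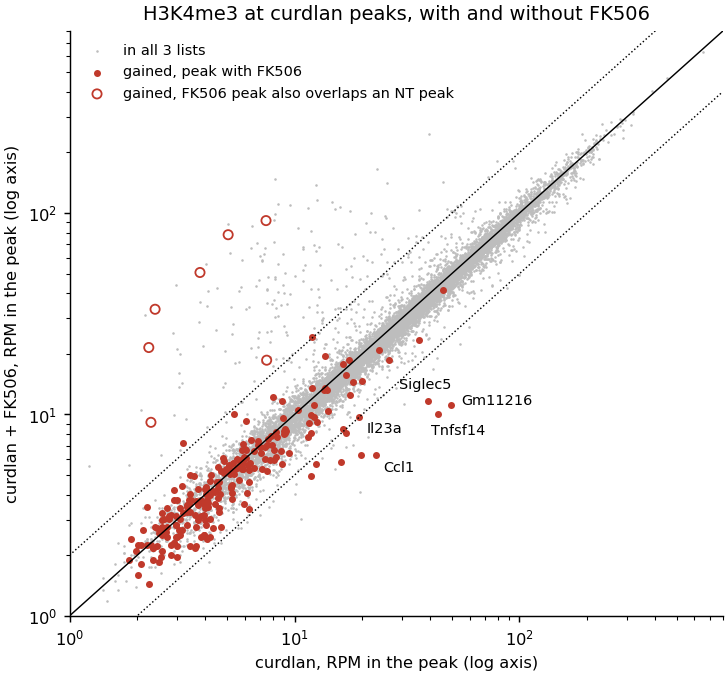
RPM of each curdlan H3K4me3 peak (x) and of the curdlan + FK506 peak or peaks overlapping it, over their own ends (y), both on log axes. Shown are members (red), members whose FK506 peak also overlaps an NT peak (open circles) and peaks in all 3 lists (grey). The solid line is equality and dotted lines are 2-fold. Most members lie along the line below 10 RPM, and Gm11216, Tnfsf14, Siglec5 and Ccl1 lie below the lower dotted line.

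The members at the edges of the rule were mostly weak. The smallest gaps to an NT peak were 33 bp at Rap1b, 68 bp at Kcnip1 and 70 bp at Tbl1x. Just outside, the smallest overlaps with an NT peak among peaks that had an FK506 peak were 36 bp at A430005L14Rik, 222 bp at Inhba and 448 bp at Samd1. The FK506 peaks with the highest p were those at Prkaca-ps1 (9.5e-06), Epb4.1l3 (9.3e-06) and Adrbk1 (8.9e-06), against the authors' threshold of 1e-05. Gained peaks with many tags and no FK506 peak included those at Wsb2 (492 tags) and 2610204G07Rik (403), so that loss of the FK506 peak was not limited to weak peaks. At the other end, the median gap between a member and the nearest NT peak was 16444 bp.

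NFATc2 summits were within 20 kb of 113 members (48.7%, 42.3 to 55.1), against 36.8% of all curdlan peaks and 42.2% (37.2 to 47.4) of gained peaks without an FK506 peak. Within 1 kb were 45 (19.4%, 14.8 to 25.0), against 9.44% of peaks in all 3 lists and 18.3% (14.7 to 22.7) of gained peaks without an FK506 peak. Inside the peak were NFATc2 summits in 50 members (21.6%, 16.7 to 27.3), in 18.3% (14.7 to 22.7) of gained peaks without an FK506 peak and in 13.5% of the much longer peaks in all 3 lists. The gained peaks with and without an FK506 peak thus had overlapping intervals for all 3 measures. By distance from a TSS, 85 of 163 members over 1 kb from a TSS (52.1%, 44.5 to 59.7) and 28 of 69 promoter members (40.6%, 29.8 to 52.4) had a summit within 20 kb, and these intervals overlap. Over all curdlan peaks the shares were 44.3% over 1 kb from a TSS and 33.8% within 1 kb. The promoter interval of the members holds the latter, and their distal interval starts just above the former. The members' place relative to TSSs is thus part of the contrast of 48.7% with 36.8%.

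The share near NFATc2 rose with the tags of the gained peaks throughout, while in peaks in all 3 lists it was level from 100 tags on. Among members it was 3 of 14 under 50 tags, 31 of 104 from 50 to under 100 (29.8%, 21.9 to 39.2), 47 of 77 from 100 to under 200 (61.0%, 49.9 to 71.2), 21 of 26 from 200 to under 400 (80.8%, 62.1 to 91.5) and 11 of 11 from 400 on (100%, 74.1 to 100). In gained peaks without an FK506 peak the shares in the same classes were 14.0%, 36.6%, 61.0%, 85.7% and 100%. In peaks in all 3 lists they were 11.5%, 22.0%, 36.3%, 35.1% and 37.6%. From 100 tags on, the intervals of the members lay above the share in all 3 lists.

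**Figure D5:**
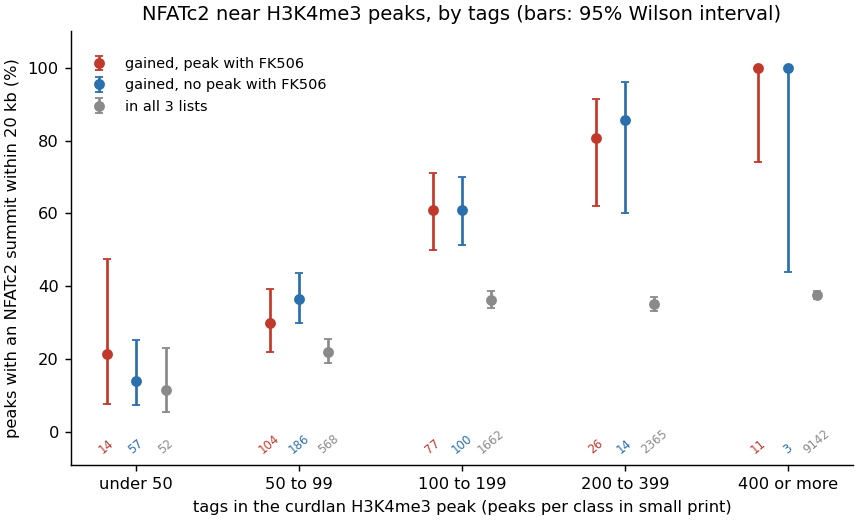
Share of peaks with an NFATc2 summit within 20 kb (y, percent, bars 95% Wilson interval) by tags in the curdlan peak (x, 5 classes, number of peaks in small print), for members (red), gained peaks without an FK506 peak (blue) and peaks in all 3 lists (grey). Both gained sets climb to 100% at 400 or more tags, where the share in all 3 lists is 37.6%.

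Among members, the median level kept with FK506 differed little with nearness to NFATc2. Gained peaks that lost their FK506 peak are left out by the rule, so these medians cannot show whether nearness goes with loss of the mark. The median log2 ratio was -0.12 in the 113 members with an NFATc2 summit within 20 kb and -0.06 in the 119 without, and -0.11 in the 50 with a summit inside. Of the 9 members that fell at least 2-fold, 8 had an NFATc2 summit within 20 kb, the exception being Il1rn at 21990 bp, and 3 had one inside. All 9 held 200 or more tags. Of all members with so many tags, 21 of 26 with 200 to under 400 and 11 of 11 with 400 or more had an NFATc2 summit within 20 kb, so 8 of 9 is near the share of such members. With 100 or more tags the medians were -0.13 (n = 79) and -0.09 (n = 35), and 8 and 1 members fell at least 2-fold. Members with an NFATc2 summit inside and a ratio of 0.910 or more included those near B4galt5, Cd9 and Tmc1. The strongest members thus held NFATc2 summits both at ratios far below 1 and at ratios whose interval held 1.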

How the data were processed

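H3K4me3 and NFATc2 ChIP-seq peak lists of D1 cells were used, 4 lists from 8 libraries (4 ChIP, 4 input), grouped by their labels. The authors used Bowtie for mapping to mm9 (Bowtie 1 for NFATc2, with no finer version given in the sources used here), kept at most 1 tag per position and called peaks per library with MACS against the input of the same condition (p of 1e-05). The MACS version, 1.4.2, is that of the file headers, and the methods of the study name another release of MACS for NFATc2. The deposited lists give for each peak the count of tags, a score of -10 times log10 of the p-value, fold enrichment over the local input background as a ratio, and the FDR in percent. Header totals give the depths.

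From these, overlaps of at least 1 bp, RPM (tags per 1000000 of the header total), the tags of all FK506 peaks that overlap a member, and distances from summits to TSSs of the Ensembl release 65 annotation of the same build (37252 genes) were computed. Ratios of RPM have exact conditional intervals, levels have Poisson intervals and shares Wilson intervals, at 95%. The limit beside a count of 0 is 3 counts of the total. The intervals cover counting error of tags (levels and ratios) or of peaks (shares) only, since each condition has 1 library. No p-value was computed. Functions were tested on simulated data with planted answers. The tools were pandas 2.3.3, numpy 2.4.6, pysam 0.24.0, scipy 1.17.1, matplotlib 3.10.9 and samtools 1.23.1 under Python 3.11.15.

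Members, gene lists and tests were chosen with earlier results of these data known. Named were the 20 members with the most curdlan tags within 1 kb of a protein-coding TSS, listed genes with a member within 1 kb, the 5 lowest and 5 highest ratios among members with at least 100 tags in both lists, and 3 peaks at each edge of the rule, some of which are not reported here. Other members named in the text were chosen after their values were seen.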

Additional observations from a re-analysis of the deposited data

How the results depend on the processing

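With 1 library per condition no replicate was left out. No paired analysis was possible because the conditions share no numbered replicates. Depth limits the weak members, since 118 of 232 held fewer than 100 tags and at that level a peak sits close to the threshold. With curdlan peaks of p of 1e-10 or less, 96 members of 165 gained peaks remained (58.2% kept), 57.3% had an NFATc2 summit within 20 kb (36.5% of all such curdlan peaks) and the median log2 ratio was -0.20. With an FDR of 5% or less in curdlan and FK506, 111 members remained, 32.5% of the gained peaks. Kept shares of 32.5% to 58.2% therefore depend on the threshold. With a TSS limit of 5 kb the share near a TSS was 46.6% (79.7% of all curdlan peaks). The NFATc2 share was 29.7% at 5 kb (19.4% of all), 62.5% at 50 kb (56.3%) and 37.1% with NFATc2 peaks of p of 1e-10 or less (21.7%). By fold enrichment the median log2 ratio was -0.28, as over all peaks, and 19 members (8.19%) fell at least 2-fold against 9.92% of all peaks, so that members no longer exceeded all peaks as they did by RPM (3.88% and 0.285%). Per kb of called peak 3 did. Asking for no NT peak within 1 kb, FK506 overlap over at least 0.5 of the peak, protein-coding TSSs, scaling to the median of peaks in all 3 lists, 100 or more tags or 1-to-1 overlap left every share and median within its 95% interval and every count within 1.5 times. The same held without the 7 members whose FK506 peak overlaps an NT peak, an alternative chosen after seeing the data.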
